A study of Mus musculus with 2 samples.

Results

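The replication-dependent histone genes of mouse adipose-derived stromal cells were followed on 1 wild-type and 1 Wisp1 knockout expression array. Rows of the deposited table were taken as members when any gene symbol of the array annotation had the form Hist1h to Hist4h, or the newer forms H1-, H2ac, H2bc, H3c or H4c with a number. A row is a transcript cluster, the array's unit of measurement. This gave 69 rows of 65956 in all, and of 32750 that carry a gene symbol. By type there were 5 rows of the linker histone H1, 20 of H2A, 18 of H2B, 10 of H3, 14 of H4 and 2 that mix types. The rows name 69 histone genes of the RefSeq gene table through their Entrez identifiers. Only 30 rows list 1 gene symbol, while 39 list several, mostly near-identical copies of a histone type, so a row is not always a gene and the rows are not independent of each other. A row is called here by the first symbol it lists.

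Inguinal fat pads of mice of the strain C57BL/6J, 6 to 10 weeks old, gave the cells, which were kept in DMEM with 15% fetal bovine serum. The wild-type group is 1 array, and the Wisp1 KO group is 1 array from global knockout offspring of mice with floxed exons 1 to 5 of Wisp1 (chromosome 15) bred with a Cre-neo mouse. How many animals or cultures stand behind each array is not given in the labels. Values are log2 expression after RMA, which corrects background, aligns the arrays and summarises the probes. With 1 array a group there is no replicate spread, no test and no p-value, and each difference (knockout minus wild type, in log2 units) compares the arrays rather than the genotypes.

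Replication-dependent histone genes supply the proteins that package newly copied DNA. Pairs of H2A, H2B, H3 and H4 form the core of the nucleosome, and H1 binds the DNA that links nucleosomes. The genes lie in clusters with many copies, have no introns, and are expressed mainly in S phase. Their mRNAs end in a stem-loop bound by the protein SLBP instead of a poly(A) tail. In cultured cells their level is often used as a sign of DNA synthesis.

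The promoters show how the classes differ before any expression value is considered. RefSeq windows of 300 bases around the gene start (build GRCm38.p6) were on hand for 62 of the 69 genes, as 63 windows. They are printed 5′ to 3′ in lower case, and capitals mark each match, on either strand, to the TATA motif (TATAAA), the CCAAT box, the octamer ATTTGCAT or the H1 box (AAACACA). No matches of different motifs overlapped in these windows. Shown are the brightest linker gene, a bright H2A gene of each main cluster, an H2A gene whose window holds the octamer, an H2A gene whose window is shared with an H2B gene, an H3 gene, and the H4 genes that lead the rows highest and lowest in difference among those with several symbols.
Hist1h1c, chr13:23738557-23738856, plus strand: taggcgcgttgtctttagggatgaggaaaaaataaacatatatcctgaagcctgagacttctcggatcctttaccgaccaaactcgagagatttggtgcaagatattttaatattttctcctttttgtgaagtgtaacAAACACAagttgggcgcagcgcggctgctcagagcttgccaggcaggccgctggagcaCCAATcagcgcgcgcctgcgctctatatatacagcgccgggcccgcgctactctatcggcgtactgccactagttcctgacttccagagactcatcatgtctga
Hist1h2af, chr13:23533625-23533924, plus strand: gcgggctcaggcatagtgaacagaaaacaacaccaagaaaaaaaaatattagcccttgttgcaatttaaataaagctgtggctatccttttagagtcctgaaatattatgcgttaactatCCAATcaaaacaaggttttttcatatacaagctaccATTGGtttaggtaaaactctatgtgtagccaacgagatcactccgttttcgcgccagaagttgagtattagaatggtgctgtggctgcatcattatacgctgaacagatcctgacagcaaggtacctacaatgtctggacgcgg
Hist2h2aa1, chr3:96245247-96245546, plus strand: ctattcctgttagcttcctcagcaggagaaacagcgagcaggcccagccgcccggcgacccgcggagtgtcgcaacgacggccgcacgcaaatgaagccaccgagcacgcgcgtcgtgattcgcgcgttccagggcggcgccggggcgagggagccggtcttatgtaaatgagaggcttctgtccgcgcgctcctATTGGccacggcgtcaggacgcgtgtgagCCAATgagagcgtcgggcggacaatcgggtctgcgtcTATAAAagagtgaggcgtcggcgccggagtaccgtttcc
Hist1h2ae, chr13:23571171-23571470, minus strand: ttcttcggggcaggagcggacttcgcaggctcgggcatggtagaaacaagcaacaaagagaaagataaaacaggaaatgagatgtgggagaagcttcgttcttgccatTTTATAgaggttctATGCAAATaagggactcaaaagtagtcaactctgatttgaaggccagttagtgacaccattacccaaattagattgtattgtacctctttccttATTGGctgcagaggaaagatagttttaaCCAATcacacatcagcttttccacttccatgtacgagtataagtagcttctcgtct
Hist1h2an, chr13:21787199-21787498, minus strand: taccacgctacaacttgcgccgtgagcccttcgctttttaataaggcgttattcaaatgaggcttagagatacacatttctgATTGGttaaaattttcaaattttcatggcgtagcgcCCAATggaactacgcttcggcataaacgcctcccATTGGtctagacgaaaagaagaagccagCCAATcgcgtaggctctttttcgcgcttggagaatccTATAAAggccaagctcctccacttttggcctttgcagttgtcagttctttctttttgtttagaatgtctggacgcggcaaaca
Hist1h3h, chr13:21717378-21717677, plus strand: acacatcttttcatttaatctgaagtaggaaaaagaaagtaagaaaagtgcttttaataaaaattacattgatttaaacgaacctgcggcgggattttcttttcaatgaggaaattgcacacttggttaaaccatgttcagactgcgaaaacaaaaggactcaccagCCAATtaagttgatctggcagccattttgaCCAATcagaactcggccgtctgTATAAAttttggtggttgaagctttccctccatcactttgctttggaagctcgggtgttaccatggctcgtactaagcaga
Hist1h4d, chr13:23581318-23581617, plus strand: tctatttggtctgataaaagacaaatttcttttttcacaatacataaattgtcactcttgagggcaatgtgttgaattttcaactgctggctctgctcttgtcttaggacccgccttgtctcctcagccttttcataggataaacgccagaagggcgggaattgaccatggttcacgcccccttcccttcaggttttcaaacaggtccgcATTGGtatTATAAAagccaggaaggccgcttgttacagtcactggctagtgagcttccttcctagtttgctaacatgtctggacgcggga
Hist1h4i, chr13:22041313-22041612, minus strand: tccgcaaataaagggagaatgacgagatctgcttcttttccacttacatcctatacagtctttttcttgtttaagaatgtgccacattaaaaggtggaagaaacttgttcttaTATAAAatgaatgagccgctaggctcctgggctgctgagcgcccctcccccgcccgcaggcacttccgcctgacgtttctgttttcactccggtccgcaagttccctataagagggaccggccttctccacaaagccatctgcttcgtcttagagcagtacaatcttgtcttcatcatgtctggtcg

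CCAAT was in all 6 H1, all 18 H2A, all 17 H2B and all 10 H3 windows, but in 3 of 12 H4 windows (25.0%), against 37.4% of the 32817 promoter windows of all genes. The octamer was in 7 of 18 H2A windows (38.9%) and 7 of 17 H2B windows (41.2%), in none of the H1, H3 or H4 windows, and in 1.74% of all windows. Many H2A and H2B windows overlap, so these counts share sequence. The H1 box was in 5 of 6 H1 windows (83.3%) against 7.19% of all windows. TATAAA was in 35 of the 63 histone windows (55.6%) against 13.6% of all windows. A match describes letters only.

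Histone rows were on balance slightly higher in the knockout array. Of the 69 rows 46 were higher (66.7%), 21 lower and 2 equal, with a median difference of 0.11 and a range from -0.26 to 0.39. The median was 0.015 over the 30 rows with 1 symbol, of which 18 were higher, and 0.07 over the 29 entries left after rows that share a histone symbol were averaged, of which 18 were higher. All rows with a symbol had a median of 0, and 46.8% of them were higher and 47.6% lower. At a fold of 1.2, a log2 difference of 0.26, 6 histone rows were higher (8.70%) and none lower, against 4.7% and 5.38% of all rows with a symbol. The 6 are led by Hist1h3a, Hist1h4d, Hist1h2ao, Hist1h2af, Hist1h2ae and Hist1h2aj. At a fold of 1.1, 28 were higher (40.6%) and 4 lower (5.80%), against 16.3% and 16.8%. No histone row reached 1.5-fold, which 0.382% of all rows with a symbol did as higher and 0.357% as lower.

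**Figure D1:**
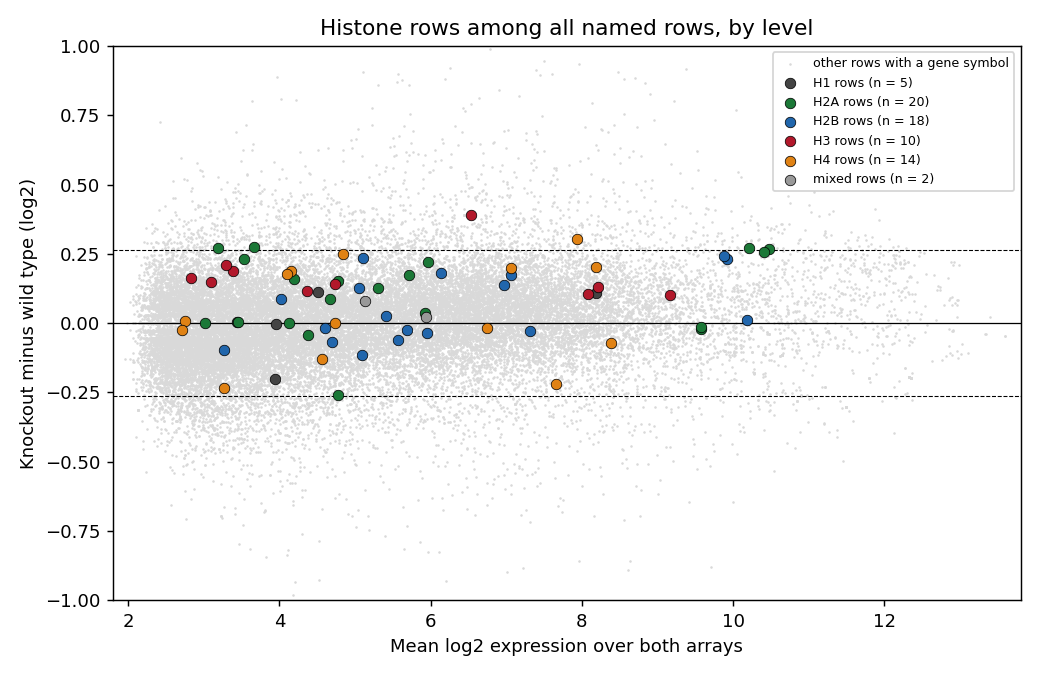
Mean log2 expression over both arrays (x axis) and the log2 difference, knockout minus wild type (y axis) for the 69 histone rows, coloured by type, over 32681 other rows with a gene symbol in grey. Dashed lines mark a fold of 1.2 either way, and 30 grey rows beyond a difference of 1 lie outside the axis; the H3 rows all lie above 0.

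The histone rows covered a wide range of levels, so the background was read by level. The lowest and highest values of the whole table were 1.88 and 13.62 (wild type), and 1.74 and 13.65 (knockout). On the wild-type array the histone rows ran from 2.73 to 10.34 with a median of 4.99, and in the knockout from 2.71 to 10.61 with a median of 5.12. Of the 26 rows below 4.64, the median level of rows with a symbol, 16 were higher (61.5%), against 37.1% of all such rows. Of the 29 rows from there up to 8, 19 were higher (65.5%), against 56.0%. Of the 14 rows at or above 8, 11 were higher (78.6%), against 58.5%. The median histone difference in these bands was 0.05, 0.09 and 0.12, and that of all rows -0.03, 0.02 and 0.04.

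The linker histones, which compact chromatin between nucleosomes, did not share a direction. Hist1h1c, by far the brightest linker row, was at 8.13 (wild type) and 8.24 (knockout), a difference of 0.11. Hist1h1a was at 4.45 and 4.57 (0.11), and Hist1h1d at 4.04 and 3.84 (-0.20), the largest linker difference. Hist1h1b was at 3.95 on both arrays, with a difference of -0.0038 that turned positive under each of the 3 other scalings. The testis-specific Hist1h1t was at 3.44 and 3.45 (0.0039). Thus 4 of 5 linker rows were dim on both arrays, and their median was 0.0039. Hist1h1e has no row of its own and is listed in a mixed row led by Hist1h2be (5.93 and 5.95).

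**Figure D2:**
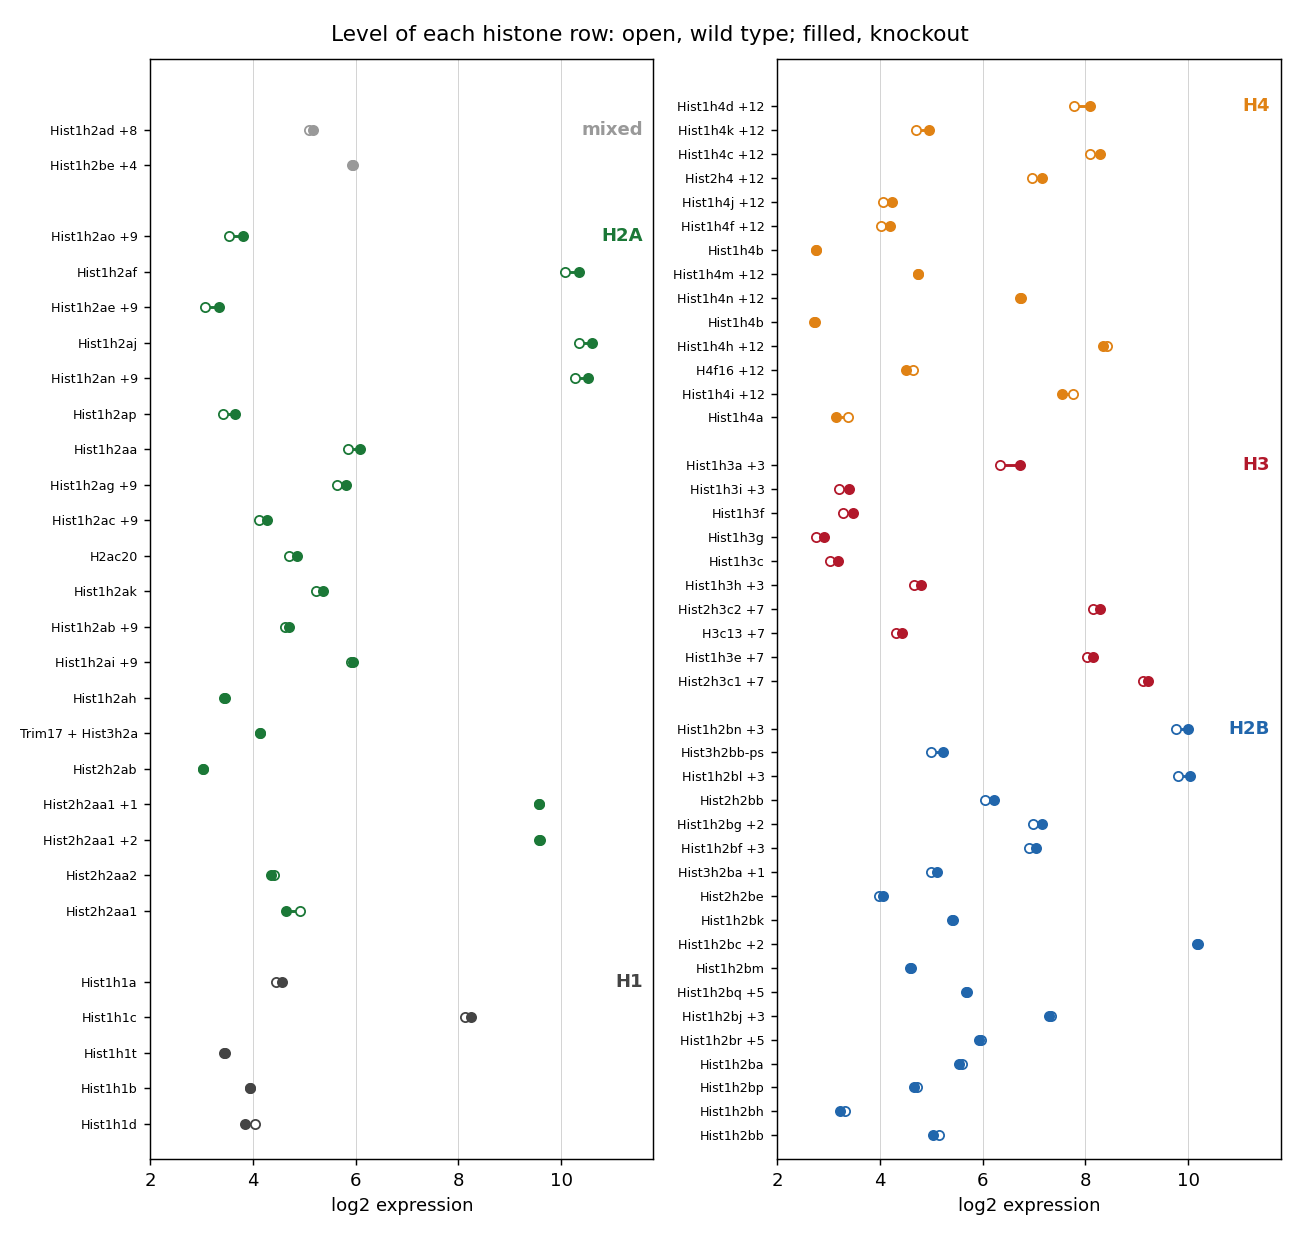
log2 expression of each of the 69 histone rows in the wild-type array (open circle) and the knockout array (filled circle), sorted by difference within each type, with the number of further symbols on the row after the plus sign. Levels run from 2.7 to 10.6, and most filled circles of H2A and H3 lie to the right of the open ones.

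H2A pairs with H2B as a dimer in the nucleosome core, and its rows shared a direction on chromosome 13 but not on chromosome 3. All 13 H2A rows on chromosome 13, home of the large Hist1 cluster, were higher in the knockout array, by 0.0035 to 0.28 with a median of 0.22. Of the 6 H2A rows on chromosome 3, home of the Hist2 cluster, 1 was higher, 5 were lower and the median was -0.02. Under quantile normalization and loess centring 2 of the 6 were higher and under median centring 3, while the 13 of chromosome 13 stayed above 0 under all of these. Few independent values stand behind either count. Most of the 6 rows list the duplicate genes Hist2h2aa1, Hist2h2aa2 or both, and Hist2h2ab differed by only -0.00041. Of the 13 rows, 7 list the same 10 symbols. Over all histone types, 7 of the 12 rows on chromosome 3 were higher, with a median of 0.09. The chromosome is read from the row identifiers, and the RefSeq table placed the first symbol of all 69 rows on the same chromosome.

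The bright H2A rows are part of the counts above and are not separate from them. Hist1h2aj, the brightest histone row of all, was at 10.34 and then 10.61 in the knockout (0.27). Hist1h2af was at 10.08 and 10.35 (0.27), and the 10-symbol row led by Hist1h2an at 10.28 and 10.53 (0.26). These 3 rows lie close together on both arrays, and whether they share probes was not tested. Hist2h2aa1 and its duplicate Hist2h2aa2 lie side by side in the genome. The row that lists both was at 9.58 and 9.56 (-0.01), and the row that adds Hist1h2al at 9.59 and 9.57 (-0.02). The rows of 1 symbol for this pair were much dimmer, Hist2h2aa1 at 4.91 and 4.65 (-0.26), the lowest difference of any histone row, and Hist2h2aa2 at 4.40 and 4.36 (-0.04).

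Among the other H2A rows, those with the same 10 symbols had very different levels. Besides Hist1h2an this set holds rows led by Hist1h2ai (5.91 and 5.94), Hist1h2ag (5.63 and 5.81), Hist1h2ab (4.62 and 4.71), Hist1h2ac (4.12 and 4.27), Hist1h2ao (3.53 and 3.80) and Hist1h2ae (3.06 and 3.33). All 7 were higher in the knockout array, by 0.04 to 0.28, and the highest of them, Hist1h2ao (0.28) and Hist1h2ae (0.27), were among the dimmest. Of rows with 1 symbol, Hist1h2ap was at 3.41 and 3.64 (0.23), Hist1h2ak at 5.24 and 5.36 (0.12) and H2ac20 at 4.70 and 4.85 (0.15). Hist1h2ah (3.45 on both arrays, 0.0035) and Hist2h2ab (3.02 on both arrays) differed by almost nothing. Hist1h2aa, a testis-specific H2A, was at 5.86 and 6.08 (0.22). Hist3h2a shares a row with the neighbouring ubiquitin ligase gene Trim17, and that row had exactly the same value, 4.13, on both arrays, as 5.57% of rows with a symbol did.

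The rows of H2B, the partner of H2A, were split. Of 18 rows 10 were higher and 8 lower; their median was 0.02, with a range from -0.11 to 0.24, and under loess centring the median was -0.0013. The 4-symbol rows led by Hist1h2bn (9.76 and 10.00, 0.24) and Hist1h2bl (9.80 and 10.03, 0.23) were, with the dimmer pseudogene row Hist3h2bb-ps (4.99 and 5.22, 0.23), the highest among them, and under loess centring the pseudogene row was highest. The brightest H2B row, led by Hist1h2bc with 3 symbols, was at 10.17 and 10.19 (0.01). A second row with those 3 symbols, led by Hist1h2bg, was at 6.97 and 7.15 (0.17). Rows that share a symbol set thus differed by unequal amounts. The rows led by Hist1h2bf (6.90 and 7.04, 0.14) and Hist1h2bj (7.33 and 7.30, -0.03) list the same 4 symbols as Hist1h2bn and Hist1h2bl.

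The remaining H2B rows were of middle or low level. Those led by Hist1h2br (5.97 and 5.93, -0.04) and Hist1h2bq (5.70 and 5.67, -0.03) share 6 symbols. Hist2h2bb was at 6.05 and 6.23 (0.18), Hist2h2be at 3.97 and 4.06 (0.09) and Hist1h2bk at 5.40 and 5.43 (0.02). On chromosome 11 the row that pairs this pseudogene with Hist3h2ba was at 4.99 and 5.12 (0.13). The rows below 0 with 1 symbol were Hist1h2bb (5.15 and 5.04, -0.11), Hist1h2bh (3.31 and 3.21, -0.10), Hist1h2bp (4.73 and 4.66, -0.07), Hist1h2bm (4.61 and 4.59, -0.02) and the testis-specific Hist1h2ba (5.60 and 5.54, -0.06). None of the H2B rows lay past a fold of 1.2.

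H2A and H2B genes often stand back to back with a common promoter region. In the RefSeq windows 10 such pairs overlapped on opposite strands, and for 9 of them each gene led a row of its own type. All 9 H2A rows were higher in the knockout array, with a median of 0.22. This follows from the count above, since they are among the 13 H2A rows of chromosome 13. Of the 9 H2B rows 4 were higher (3 under quantile normalization), with a median of -0.03. The pairs are not separate observations: several H2A rows list the same 10 symbols, and the windows of Hist1h2bq and Hist1h2br are nearly the same. The H2A difference was above the H2B difference in 6 pairs. Hist1h2an (0.26) stands opposite Hist1h2bp (-0.07), Hist1h2ao (0.28) opposite Hist1h2bq (-0.03), and Hist1h2aa (0.22) opposite Hist1h2ba (-0.06). In Hist1h2ae and Hist1h2bg (0.27 and 0.17) both rows were higher. The opposite order was seen for Hist1h2ai and Hist1h2bl (0.04 and 0.23), for Hist1h2ak and Hist1h2bn (0.12 and 0.24) and, by the least, for Hist1h2ah and Hist1h2bk (0.0035 and 0.02). Most of these rows list further copies, and the value of such a row cannot be assigned to 1 gene of the pair. Both rows list 1 symbol only for Hist1h2ah with Hist1h2bk and for Hist1h2aa with Hist1h2ba.

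**Figure D3:**
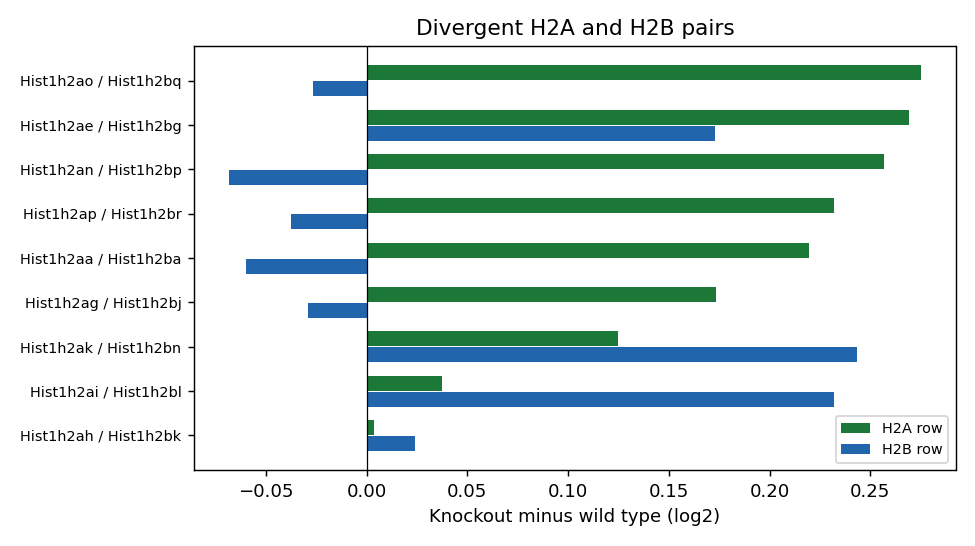
log2 difference, knockout minus wild type, for the rows led by the H2A gene (green bars) and the H2B gene (blue bars) of 9 pairs whose promoter windows overlap on opposite strands. All H2A bars lie above 0, and 5 of the 9 H2B bars lie below 0.

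H3 was the core type whose rows all lay on the same side. Of its rows 3 list the same 4 symbols and another 3 the same 8, so they are not independent values. All 10 H3 rows were higher in the knockout array, by 0.10 to 0.39 with a median of 0.15. All 10 remained higher under median centring, quantile normalization and loess centring. These scalings lowered no histone row by more than 0.061, less than the smallest H3 difference, so no H3 row could have turned sign. The row led by Hist1h3a, with 4 symbols, went from 6.34 to 6.73 (0.39), the highest difference of any histone row, or 1.31-fold. Hist1h3a, Hist1h3g, Hist1h3h and Hist1h3i encode H3.1, a form deposited during replication. The other rows of this group were led by Hist1h3h (4.66 and 4.80, 0.14), Hist1h3i (3.20 and 3.41, 0.21) and Hist1h3g (2.76 and 2.92, 0.16).

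The other H3 genes on the array encode H3.2, the other replicative form. Their brightest rows list the same 8 symbols and were led by Hist2h3c1 (9.12 and 9.22, 0.10), Hist2h3c2 (8.15 and 8.28, 0.13) and Hist1h3e (8.03 and 8.14, 0.11). These rows, at or above 8, differed from each other by under 0.03 in their difference, although their levels were over 1 apart. Dimmer rows of this form are H3c13 (4.31 and 4.43, 0.12), Hist1h3f (3.29 and 3.47, 0.19) and Hist1h3c (3.02 and 3.17, 0.15). The H3c13 row lists the same 8 genes under their newer symbols, and Hist1h3f and Hist1h3c are among those genes. The H3.1 rows ran from 0.14 to 0.39 (median 0.19, 4 rows) and the H3.2 rows from 0.10 to 0.19 (median 0.12, 6 rows), so the ranges overlap.

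H4 rows showed the widest scatter. Of 14 rows 7 were higher, 6 lower and 1 equal, with a median of 0.0033 and a standard deviation over rows of 0.18, against 0.09 for H3. The median depended on the rows taken: it was 0.18 over the 11 rows with several symbols, -0.026 over the 3 with 1 symbol, 0.10 over the 8 rows at or above the median level of rows with a symbol and 0.09 at or above a mean of 6. All H4 genes of the mouse encode the same protein, and 11 of the rows list 13 symbols. Of these 11, 6 were higher by at least 1.1-fold (54.5%) and 1 was lower (9.09%), against 16.3% and 16.8% of all rows with a symbol. The 11 rows list the same copies, so they are not independent values. Among the 6 were those led by Hist1h4d (7.78 and 8.09, 0.30), Hist1h4k (4.71 and 4.96, 0.25) and Hist1h4c (8.08 and 8.29, 0.20). Hist2h4 was at 6.96 and 7.16 (0.20), Hist1h4j at 4.06 and 4.24 (0.19) and Hist1h4f at 4.01 and 4.19 (0.18).

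The other H4 rows with 13 symbols stood at or below 0. The row led by Hist1h4i went from 7.76 to 7.54 (-0.22). The brightest H4 row, led by Hist1h4h, was at 8.42 and 8.34 (-0.07), and Hist1h4n at 6.75 and 6.73 (-0.02). Hist1h4m had the same value, 4.74, on both arrays. H4f16, the H4 gene on chromosome 6 apart from the large clusters, led a row at 4.64 and 4.50 (-0.13). Rows with 1 symbol were all dim, Hist1h4a at 3.39 and 3.15 (-0.23), and the 2 rows of Hist1h4b at 2.75 and 2.76 (0.0067) and at 2.73 and 2.71 (-0.03). Rows with the same 13 symbols therefore ran from -0.22 to 0.30.

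The 2 mixed rows complete the set. The row led by Hist1h2ad lists H2A and H3 symbols and was at 5.09 and 5.17 (0.08). The row led by Hist1h2be, which holds H2B symbols and Hist1h1e, differed by 0.02.

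The histones made outside S phase, whose mRNAs mostly carry poly(A) tails, were compared as a list. Of 10 measured genes 8 were higher, 1 was lower and 1 equal, with a median of 0.13, and 3 passed a fold of 1.2. All 10 lay at or above the median level of rows with a symbol. Of all rows with a symbol 4.7% were at least 1.2-fold higher and 5.38% lower. Below the median level 37.1% were higher, from there up to 8 56.0%, and at or above 8 58.5%. The same value on both arrays was held by 5.57% of all rows with a symbol. These shares are the background for each list below. H2afz, the H2A.Z variant of promoters, was at 7.65 in wild type and higher by 0.35 in the knockout, H1fx, a linker variant, from 6.08 to 6.42 (0.34), and H2afx, the variant phosphorylated at DNA breaks, from 7.56 to 7.83 (0.27). H2afj was the lower gene (7.33 and 7.20, -0.13). H3f3a (8.06 and 8.12) and H3f3b (6.19 and 6.38), which encode the replacement histone H3.3, differed by 0.06 and 0.19 on rows that also list pseudogenes.

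Genes that make and mature histone mRNA differed less. Of 20 measured factors 14 were higher, 5 lower and 1 equal, with a median of 0.05 and none past a fold of 1.2 either way. Npat, the coactivator of histone gene clusters, was at 6.42 and 6.54 (0.12), and Slbp, the stem-loop binding protein, at 5.19 and 5.25 (0.06). Cstf2, a cleavage factor subunit, was the highest at 0.19 (5.41 and 5.60), and Zfp473, a zinc finger protein of histone mRNA end processing, the lowest at -0.16 (4.03 and 3.87). Histone chaperones had 10 of 19 genes higher, 4 lower and 5 equal, with a median of 0.02. Asf1a, which hands H3 and H4 to the assembly factors, was highest (6.25 and 6.49, 0.24), and Nap1l1, an H2A and H2B chaperone, lowest (9.99 and 9.77, -0.22).

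DNA synthesis genes did not share a direction. Of 38 measured genes of DNA replication and the entry to S phase 17 were higher, 13 lower and 8 equal, with a median of 0. The 8 equal values, a larger share than the 5.57% of all rows with a symbol, hold that median at 0, and under loess centring it was 0.01. Only Ccna2, the cyclin of S and G2, passed a fold of 1.2 (6.04 and 6.32, 0.28). Rrm1, a subunit of the enzyme that makes deoxynucleotides, was lowest (7.98 and 7.77, -0.21), and Pcna, the replication clamp, was at 7.20 and 7.33 (0.12). In contrast, all 11 measured genes of G2 and mitosis were higher, with a median of 0.13, led by Ccnb2 (6.20 and 6.73, 0.52) and Mki67 (6.40 and 6.87, 0.47). Of all rows from the median level up to 8, 56.0% were higher, and 1 of the 11 genes lay below that median level. In RNA from a whole culture, more cells in a phase of the cycle and more histone RNA per cell cannot be told apart.

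**Figure D4:**
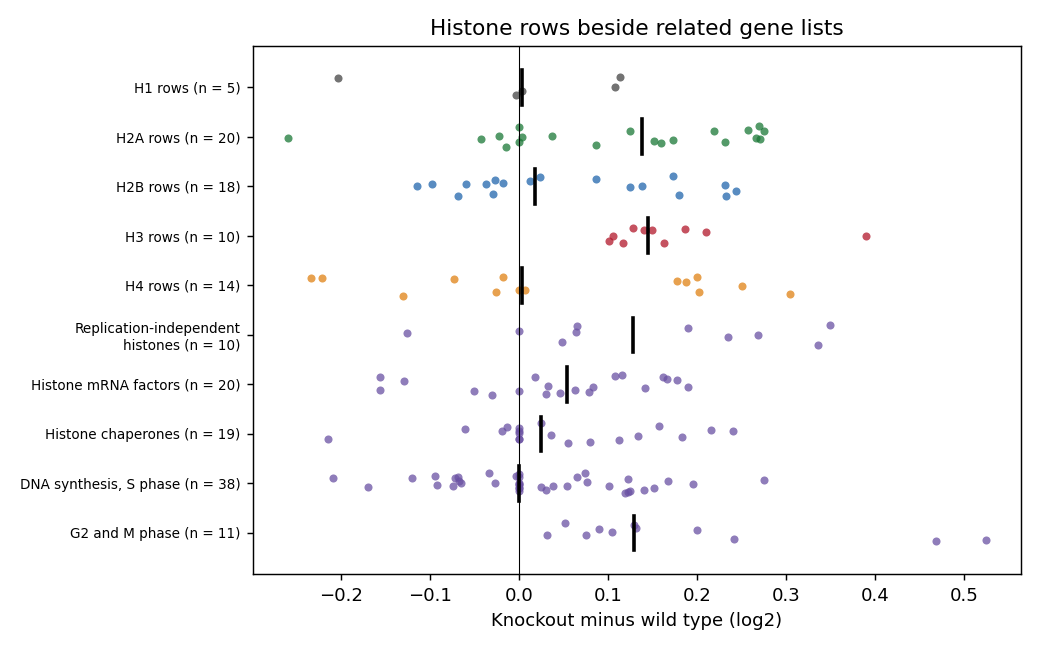
log2 difference, knockout minus wild type, for each histone row, by type, and for each gene of 5 related lists; each point is a row or gene, with vertical jitter only, and the black bar is the median. H3 and the G2 and M phase genes lie wholly above 0, while the medians of H1, H4 and the DNA synthesis genes lie at or near 0.

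The state of the samples was checked on the targeted gene and on cell type markers. Wisp1 went from 7.79 to 5.40 (-2.39). Stromal markers were higher in 7 of 9 genes (sum of unlogged values 6771 and 8004), with Col1a1 (11.40 and 11.90, 0.50) past a fold of 1.2. Col1a1, the brightest of the 9, weighs most in this sum, and their median difference was 0.03. Pdgfrb (10.38 and 10.49) and Thy1 (10.34 and 10.43) were also bright on both arrays. Cd34 (5.43 and 5.51) and Pi16 (5.63 on both arrays) were of middle level, and Dpp4 and Nt5e were dim. Eng had the lowest stromal difference (9.38 and 9.17, -0.21). Markers of macrophages were higher in 7 of 10 genes, with a sum of unlogged values of 279 that became 446 in the knockout. Lyz2 (6.14 and 7.43, 1.29), Fcer1g (5.13 and 6.02, 0.90), Cd68 (5.77 and 6.35, 0.58) and Tyrobp (4.57 and 5.09, 0.51) were past a fold of 1.2. Lyz2, the brightest, weighs most in the sum. The other markers differed less: Csf1r (4.61 and 4.62), Itgam (3.69 and 3.78), Mrc1 (3.39 and 3.50), Adgre1 (3.33 and 3.25) and Cd14 (4.90 and 4.72). Ptprc, the common leukocyte gene, was at 2.86 on both arrays. Endothelial markers were higher in 5 of 8 genes (unlogged sum 173 and 187), with Cdh5 (3.81 and 4.62, 0.80) and Emcn (3.24 and 4.04, 0.80) past that fold, both dim on both arrays. Adipocyte markers were higher in 2 of 7 genes (190 and 160), with Retn (4.90 and 3.81, -1.08) and Adipoq (4.50 and 3.86, -0.64) lower past it. Lymphocyte markers were higher in 3 of 7 genes (103 and 104), with Cd79a (3.63 and 3.92, 0.28) past it. Apart from that of Cd79a, each of these marker differences past the fold was larger than any histone difference. Of all rows with a symbol 4.7% were at least 1.2-fold higher and 5.38% lower. The part of these other cell types in the histone differences was not tested.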

How the data were processed

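The values deposited by the authors are log2 expression per transcript cluster from 1 Affymetrix array per genotype, labelled with the GeneChip WT PLUS kit per the labels' protocols and processed by RMA in Partek per the submitters' processing notes. Versions, the arrays normalized together and the build of the array design are not given in the sources used here. That the scale is log2 was judged from the range of values, whose medians were 3.93 (wild type) and 3.92 (knockout). RMA aligns the arrays, so a shift shared by most genes cannot be seen.

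Rows were named through the platform annotation, of older date, with histone types read from the symbols. Differences are knockout minus wild type with no further scaling. Rows called different lie past a fold of 1.2, with 1.1, 1.5 and 2 beside it. With 1 array per group no test was run, and the number of arrays limits the precision. The related lists hold genes chosen from general knowledge, of which 10 of 11 replication-independent histones, 20 of 21 histone mRNA factors, 19 of 20 chaperones, 38 of 39 DNA synthesis genes, 11 of 12 G2 and M genes and 9 of 10 stromal markers matched a named row (the brightest, where several). Every histone row is described; in the related and marker lists the genes past a fold of 1.2, and in a list with none the extremes, are named, and a few others, such as Npat, Slbp, Pcna, H3f3a and the markers, were chosen after their values were seen, as were the grouping of H2A by chromosome, of H3 by form and of back-to-back pairs. The members and lists were chosen with earlier results of these data known. The alternatives were median centring, quantile normalization, loess centring (span 0.3), level filters, rows with 1 symbol, removal of germline-specific and pseudogene rows, averaging of rows that share a symbol, and other folds. Promoter windows are RefSeq, GRCm38.p6, matched by Entrez identifier. The counting was tested on simulated data with added differences larger than any histone difference, so the test does not cover small ones. Under quantile normalization the simulated counts were not required to match. The software was matplotlib 3.10.9, statsmodels 0.14.6, pandas 2.3.3, numpy 2.4.6 and Python 3.11.15.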

Additional observations from a re-analysis of the deposited data

How the results depend on the processing

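Of 68 alternative values, 47 stayed within 0.05 (log2) of a median or within 1.5 times a count, 18 moved further and 3 turned sign. Some of the 47 could not have come out otherwise. With 0 rows at least 1.2-fold lower, subsets of the rows, averaging and larger folds must also give 0. All 5 H1 rows list 1 symbol, so that filter left their median as it was. The median over all histone rows ranged from 0.09 to 0.12 under the 3 other scalings, was 0.07 over the 29 entries left after rows that share a symbol were averaged, and was 0.015 over the 30 rows with 1 symbol. The number of higher rows was 30 of 43 at or above the median level, 17 of 23 at or above a mean of 6, 18 of 30 with 1 symbol and 18 of 29 after averaging, counts that shrink because fewer rows enter. Rows at least 1.2-fold higher numbered 2 with 1 symbol, 2 after averaging, 28 at 1.1-fold and 0 at 1.5-fold or 2-fold. Rows at least 1.2-fold lower numbered 1 under quantile normalization and 4 at 1.1-fold. By type, the H1 median was 0.11 with either level filter (1 row left), the H2A median 0.26 and the H2B median 0.17 at or above a mean of 6, and the H4 median 0.10 at or above the median level and 0.091 at or above 6. The H2B median turned to -0.0013 under loess centring and to -0.018 over rows with 1 symbol, and the H4 median to -0.026 over its 3 rows with 1 symbol. The cause was not tested. No paired analysis was possible because each group has 1 array. Of the 30 rows with 1 symbol, 13 lay at or above the median level of rows with a symbol.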
